A study of Mus musculus with 6 samples.

Results

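The interferon regulatory factor (IRF) genes were followed across 6 RNA-sequencing libraries of dendritic cells (DC) sorted from mouse tumors. They were taken by symbol out of the 23224 genes of the deposited table, and the family was chosen with earlier results of these data known. The 8 named members were Irf1, Irf2, Irf3, Irf4, Irf5, Irf7, Irf8 and Irf9, and all 8 passed the filter on low counts.

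IRF proteins share a DNA-binding domain that reads GAAA repeats, the core of interferon-stimulated response elements. Irf3 and Irf7 are switched on by kinases below nucleic acid sensors and drive interferon genes, whereas Irf9 is the DNA-binding subunit of ISGF3, the complex that carries the type I interferon signal to its target genes. Irf1 is induced by interferon-gamma, Irf2 competes with it for the same elements, and Irf5 acts below Toll-like receptors on inflammatory cytokine genes. Irf8 and Irf4 bind largely with partners such as PU.1 and BATF proteins and are the lineage factors of conventional DC, Irf8 of DC1 and Irf4 of CD11b+ DC2.

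The cells came from MC57-SIY tumors, a mouse fibrosarcoma line carrying the model antigen SIY, which grew for 7 days under the flank skin of C57BL/6 mice. The 3 groups had 2 libraries each: ISG+ DC from WT hosts (replicates 1 and 2), ISG+ DC from Rag2-/- hosts (replicates 2 and 3) and CD103+ DC1 from Rag2-/- hosts (replicates 2 and 3). Rag2 is required to assemble antigen receptor genes, so Rag2-/- mice have no mature T or B cells. Tumors were pooled, separate replicate experiments were stated by the labels for each sample type, and the gate that defined ISG+ DC was not given. No CD103+ DC1 library from WT hosts was analysed here, so the populations were compared within Rag2-/- hosts and the hosts within ISG+ DC.

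To show what lies before the genes that the results turn on, the 250 bases upstream of the start site are printed for Irf8, Irf4, Irf1 and Irf7. They come from the RefSeq promoter table (build GRCm38.p6), in which 8 of 8 members were matched, and each runs 5′ to 3′ along its gene. Irf8 is given at chr8:120736108-120736357 on the plus strand, Irf4 at chr13:30748983-30749232 on the plus strand, Irf1 at chr11:53769764-53770013 on the plus strand and Irf7 at chr7:141266425-141266674 on the minus strand. The authors' counts rest on build mm9, so these positions are not those of their files. Capitals mark matches to the gamma-activated site TTCNNNGAA, an element of interferon-gamma-induced genes.
Irf8: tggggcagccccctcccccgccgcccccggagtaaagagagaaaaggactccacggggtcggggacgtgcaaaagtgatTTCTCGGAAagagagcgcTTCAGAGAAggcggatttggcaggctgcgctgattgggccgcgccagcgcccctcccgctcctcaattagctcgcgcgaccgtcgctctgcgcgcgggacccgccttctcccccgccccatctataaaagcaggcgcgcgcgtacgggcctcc
Irf4: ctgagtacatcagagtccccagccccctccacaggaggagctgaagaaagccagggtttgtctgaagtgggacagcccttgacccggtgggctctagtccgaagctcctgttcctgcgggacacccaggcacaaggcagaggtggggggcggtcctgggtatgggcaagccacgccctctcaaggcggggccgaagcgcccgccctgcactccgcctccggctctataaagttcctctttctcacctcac
Irf1: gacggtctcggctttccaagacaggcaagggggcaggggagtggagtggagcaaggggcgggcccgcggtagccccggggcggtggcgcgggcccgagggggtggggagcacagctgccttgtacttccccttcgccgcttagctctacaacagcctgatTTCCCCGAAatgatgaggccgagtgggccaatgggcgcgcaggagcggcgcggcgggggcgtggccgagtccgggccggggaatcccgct
Irf7: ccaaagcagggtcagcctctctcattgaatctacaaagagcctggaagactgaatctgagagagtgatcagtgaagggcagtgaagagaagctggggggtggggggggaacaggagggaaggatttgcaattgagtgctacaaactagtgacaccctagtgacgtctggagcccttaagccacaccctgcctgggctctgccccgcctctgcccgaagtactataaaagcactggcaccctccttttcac

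Irf8 held 2 gamma-activated site matches, TTCTCGGAA at position -171 and TTCAGAGAA at position -153 from the start site. Irf1 held 1, TTCCCCGAA at position -90, and no match lay in the windows of Irf4 and Irf7. The table holds 2 start sites each for Irf1, Irf8 and Irf9, and the other windows of Irf1 and Irf8 and both windows of Irf9 held no match to any motif searched. Windows of 300 bases, 250 before and 50 after the start, were also searched on both strands for an ISRE-like pair, GAAA and GAAA spaced by any 2 bases, and for an ETS-IRF composite, GGAA and GAAA spaced by any 2 bases. Among the members these were found in Irf2 alone, at positions -241 and -247 and overlapping each other, together with a gamma-activated site match at position -224. Of 32851 promoter windows of the same length, 8.3% held the gamma-activated site, 3.44% the ISRE-like pair and 2.72% the ETS-IRF composite. A match describes letters in this window and was not tested as a bound site.

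Library totals ran from 6023510 to 15368616 estimated counts, and CD103+ DC1 replicate 3 had the lowest total and a Spearman correlation of 0.858 to 0.902 with the other libraries. Rag2 itself had 40 and 2 estimated counts in Rag2-/- ISG+ DC and 39 and 11 in Rag2-/- CD103+ DC1, against 0 and 0 in WT ISG+ DC, so its RNA did not check the host labels. The pan-DC genes Itgax, H2-Ab1, Zbtb46 and Flt3 were found in all 6 libraries. Flt3 had 15.8 and 32.4 CPM (counts scaled to a common library total) in WT ISG+ DC, against 490 and 330 CPM in CD103+ DC1. Zbtb46 had 32.2 and 52.3 CPM in WT ISG+ DC, against 260 and 267 CPM in CD103+ DC1. Both, with the DC gene Dpp4, were called lower there (edgeR adjusted p under 0.05), Itgax was called higher and H2-Ab1 was not called. Between the Rag2-/- populations Flt3 was called lower in ISG+ DC and Itgax higher. DC1 markers summed to 91.5 to 98.7 CPM in WT ISG+ DC, 103 to 156 CPM in Rag2-/- ISG+ DC and 1944 to 2074 CPM in CD103+ DC1. DC2 markers summed to 2993 to 3100.1 CPM in WT ISG+ DC, 2326 to 2751 CPM in Rag2-/- ISG+ DC and 111 to 141 CPM in CD103+ DC1. Macrophage and monocyte markers, 12 in the table, summed to 7412 to 7795 CPM in WT ISG+ DC, 2824 to 4374 CPM in Rag2-/- ISG+ DC and 499 to 627 CPM in CD103+ DC1. Of these, Ly6c2 was at 0 in CD103+ DC1 replicate 3 and no other was at 0 in any library. B cell markers, of which 4 to 5 of 6 were at 0 in each library, summed to 28.5 to 45.0 CPM in WT ISG+ DC, 59.4 to 60.5 CPM in Rag2-/- ISG+ DC and 3.19 to 13.9 CPM in CD103+ DC1. Most of that sum was Blnk, a signalling adaptor, at 58.8 ± 1.90 CPM in Rag2-/- ISG+ DC and 8.21 ± 7.76 CPM in CD103+ DC1, while Ms4a1 was at 0 in all 6 libraries. Plasmacytoid DC markers, 8 in the table, summed to 179 to 189 CPM in WT ISG+ DC and 205 to 256 CPM in Rag2-/- ISG+ DC. In CD103+ DC1 they summed to 127 to 143 CPM. Of these markers, Siglech reached 3.60 CPM at most, while Tcf4 was at 84.1 ± 13.7 CPM in Rag2-/- ISG+ DC and 35.9 ± 1.65 CPM in CD103+ DC1. None of the 5 tested was called in any comparison.

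The make-up of the family was read next. Levels of different genes are compared here as CPM per kilobase of exon, with exon lengths from GENCODE M21, since the annotation behind the counts was not given in the sources used here. In WT ISG+ DC the order was Irf7 at 181 ± 10.4 CPM per kilobase, Irf5 at 141 ± 11.4, Irf1 at 99.0 ± 4.32 and Irf2 at 90.1 ± 14.4 (SD, n = 2 each), then Irf8, Irf9, Irf3 and Irf4, the last at 14.0 ± 1.67. Only Irf1 and Irf2 overlapped as neighbours in that order. In Rag2-/- ISG+ DC Irf7 led at 366 ± 34.6 CPM per kilobase, followed by Irf5 at 157 ± 10.9 and Irf2 at 80.1 ± 1.73. Irf9 at 54.6 ± 6.64, Irf8 at 45.6 ± 8.98 and Irf1 at 44.3 ± 1.47 followed and overlapped as neighbours, as did Irf4 at 17.1 ± 2.02 and Irf3 at 12.5 ± 4.62. In CD103+ DC1 Irf8 at 348 ± 195 and Irf7 at 251 ± 51.1 CPM per kilobase overlapped at the top, ahead of Irf5 at 183 ± 45.4. Irf2, Irf1 and Irf9 lay between 40.7 and 53.9 and overlapped, and Irf3 at 8.27 ± 1.62 and Irf4 at 1.73 ± 0.863 came last.

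As shares of the summed level of the 8 genes, Irf8 took 8.75% to 9.95% in WT ISG+ DC, 4.93% to 6.86% in Rag2-/- ISG+ DC and 28.5% to 43.3% in CD103+ DC1. Irf7 took 26.2% to 29.3% in WT ISG+ DC, 45.1% to 49.1% in Rag2-/- ISG+ DC and 25.6% to 29.1% in CD103+ DC1. Irf1 took 15.0% to 15.4% in WT ISG+ DC, 5.70% to 5.72% in Rag2-/- ISG+ DC and 4.48% to 5.05% in CD103+ DC1. Irf5, in contrast, stayed between 18.7% and 22.5% in every library, and Irf4 never passed 2.44%.

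**Figure D1:**
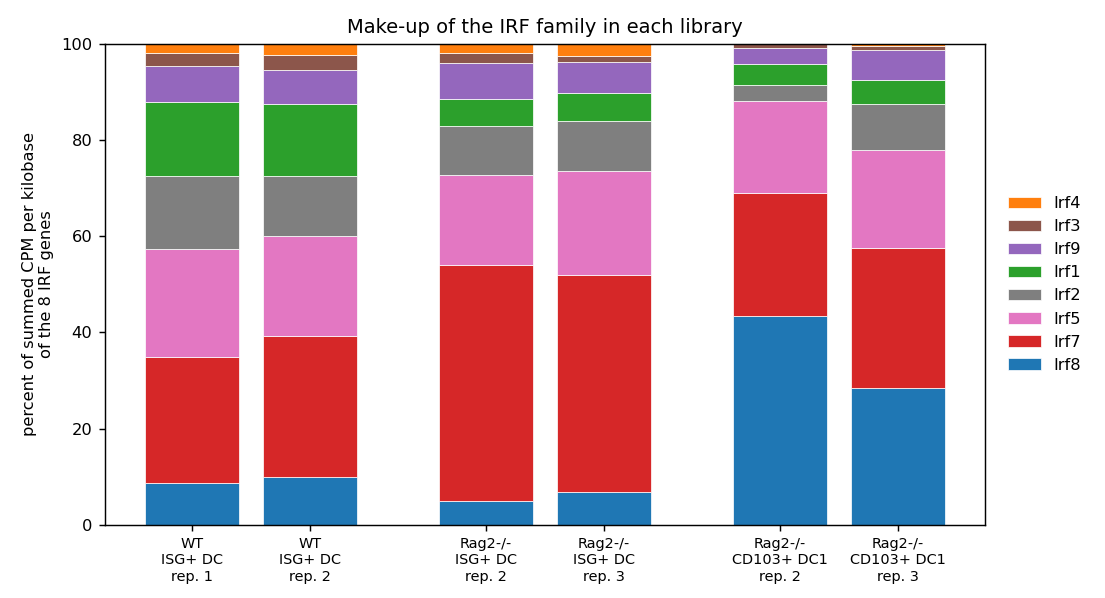
Stacked bars give the percent of the summed CPM per kilobase of the 8 IRF genes in each of the 6 libraries. The Irf8 share is widest in CD103+ DC1 (28.5% to 43.3%), the Irf7 share in Rag2-/- ISG+ DC (45.1% to 49.1%) and the Irf1 share in WT ISG+ DC (15.0% to 15.4%).

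Tests used edgeR's quasi-likelihood fit over all 6 libraries, with Benjamini-Hochberg adjustment over the 13223 genes tested and a threshold of 0.05. In Rag2-/- ISG+ DC against Rag2-/- CD103+ DC1, 1 of 8 members rose (Irf4), 1 fell (Irf8) and 6 did not pass, where 3.69% of all genes tested were called, 2.83% as higher and 0.862% as lower. In WT ISG+ DC against Rag2-/- ISG+ DC, 0 of 8 passed, where 0.552% of all genes were called, 0.287% as higher and 0.265% as lower. At an unadjusted p under 0.05 there were 2, Irf1 and Irf7, where 9.88% of all genes passed, and DESeq2 called these 2. In WT ISG+ DC against Rag2-/- CD103+ DC1, where population and host differ together, Irf1 and Irf4 rose and Irf8 fell, 3 of 8, where 9.14% of all genes were called, 5.52% as higher and 3.62% as lower. This last comparison shares its libraries with the other 2, so its values are not separate evidence. With 2 libraries a group, ranges often fail to overlap. Between populations the ranges of 4 members were apart and higher and of 1 lower, where 45.9% of all genes were apart, 23.9% higher and 22% lower. Between hosts 3 were higher and 3 lower, where 44.5% of all genes were apart, 21.4% higher and 23.1% lower. In the joint comparison 4 were higher and 3 lower, where 51.4% of all genes were apart, 25.7% higher and 25.7% lower. Exons of Irf1, Irf5 and Irf9 overlap those of Gm17334, Tnpo3 and Rnf31, and the strand setting of the counting was not given, so reads there may be shared. The median absolute log2 fold change of the members was 0.56 between populations (all genes 0.69), 0.35 between hosts (all genes 0.55) and 0.96 in the joint comparison (all genes 0.84).

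**Figure D2:**
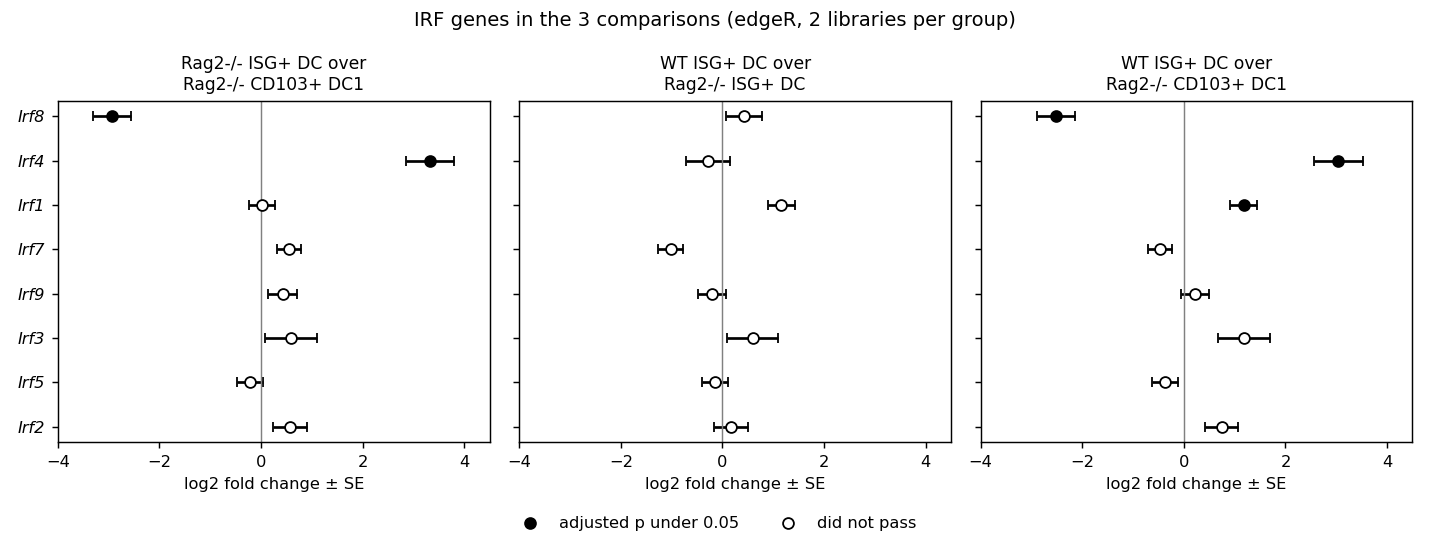
Log2 fold change ± SE of each IRF gene in the 3 comparisons, with filled points where the edgeR adjusted p was under 0.05. Irf8 and Irf4 lie on opposite sides of 0 in the comparisons with CD103+ DC1, and Irf1 and Irf7 on opposite sides between the hosts.

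Irf8 and Irf4, the lineage factors, set the ISG+ DC of both hosts apart from CD103+ DC1, in opposite directions. Irf8 had 199 and 219 CPM in WT ISG+ DC and 135 and 179 CPM in Rag2-/- ISG+ DC, against 1668 and 723 CPM in CD103+ DC1. Both CD103+ DC1 libraries lay above all 4 ISG+ DC libraries, although they differed from each other more than any ISG+ DC pair. In Rag2-/- ISG+ DC Irf8 fell by 2.93 ± 0.38 on the log2 scale (SE, edgeR adjusted p = 0.00188), a level 7.63-fold lower than in CD103+ DC1. The size depended on the CD103+ DC1 library used, at -2.21 without replicate 2 and -3.39 without replicate 3, and the call held in all 10 alternatives. In these bulk samples fewer cells of a type and less RNA per cell cannot be told apart.

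Irf4 had 61.1 and 72.4 CPM in WT ISG+ DC and 74.5 and 88.1 CPM in Rag2-/- ISG+ DC, against 5.32 and 11.1 CPM in CD103+ DC1. The ISG+ DC libraries were all above the CD103+ DC1 libraries. Irf4 rose by 3.33 ± 0.48 on the log2 scale in Rag2-/- ISG+ DC (edgeR adjusted p = 0.00331), which is 10.03-fold. Without CD103+ DC1 replicate 2 the change was 2.86, and without replicate 3 it was 3.95. The count ratio of Irf4 to Irf8 within a library, which no library scaling can alter, was 0.307 and 0.330 in WT ISG+ DC, 0.552 and 0.493 in Rag2-/- ISG+ DC, and 0.00319 and 0.0154 in CD103+ DC1. Its mean log2 was 6.22 higher in Rag2-/- ISG+ DC than in CD103+ DC1, with an exact two-sided permutation p of 0.333, the smallest that 2 against 2 libraries can give.

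Neither lineage factor passed between hosts. Irf8 was 0.42 ± 0.35 higher on the log2 scale in WT than in Rag2-/- ISG+ DC (edgeR adjusted p = 0.813), and Irf4 differed by -0.28 ± 0.43 (edgeR adjusted p = 0.946). In WT ISG+ DC against CD103+ DC1, Irf8 fell by 2.52 ± 0.37 (edgeR adjusted p = 0.00211) and Irf4 rose by 3.04 ± 0.48 (edgeR adjusted p = 0.0029). Without CD103+ DC1 replicate 2 these were -1.80 and 2.57, and without replicate 3 they were -2.98 and 3.66.

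**Figure D3:**
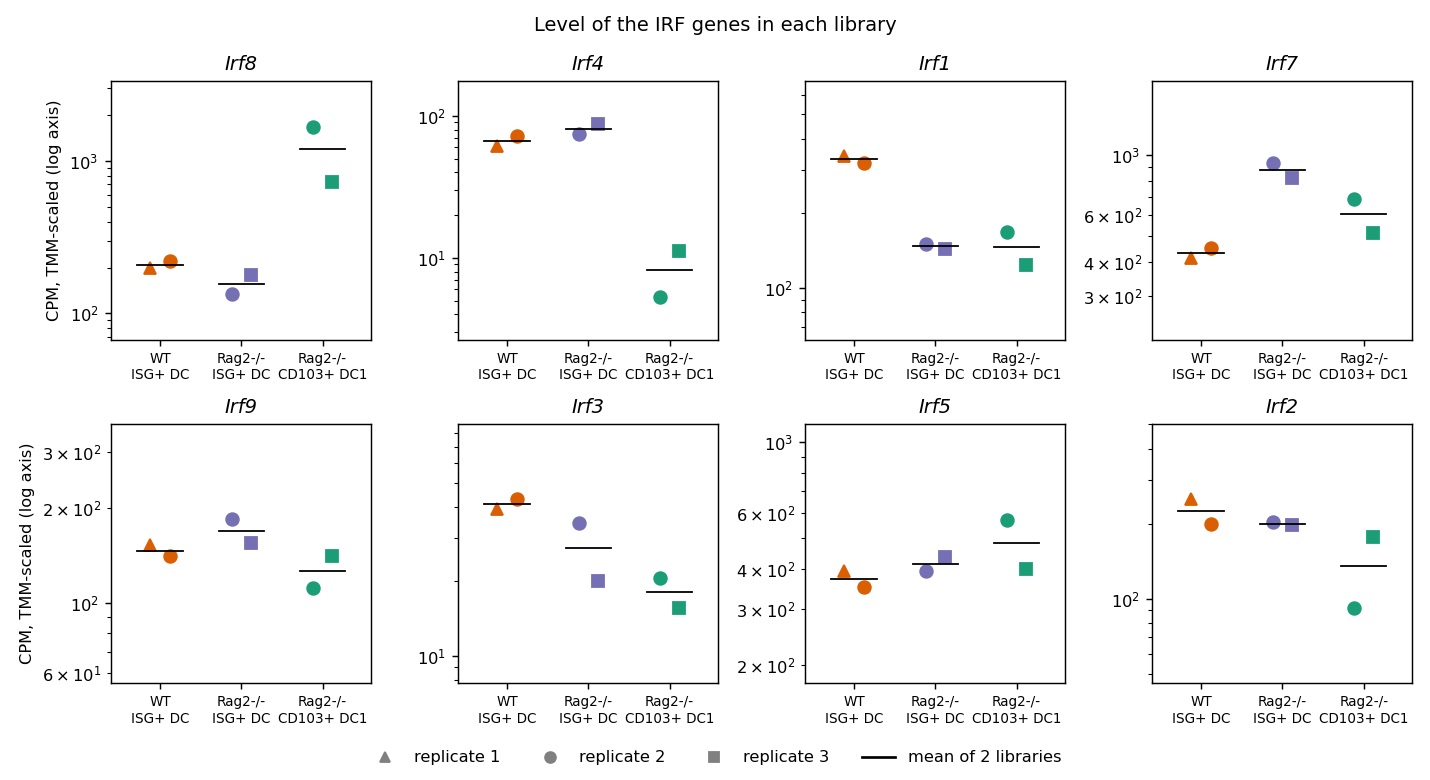
TMM-scaled CPM of each IRF gene on a log axis, with 1 point per library, marked by replicate number, and a line at the mean of the 2 libraries of a group. Irf8 and Irf4 separate the ISG+ DC from CD103+ DC1 (at most 219 against at least 723 CPM for Irf8). Between hosts 3 members lie apart and higher in WT, Irf1 among them, and 3 lie lower, Irf7 among them. Of all genes tested, 44.5% lay apart between hosts, 21.4% higher and 23.1% lower. None passed between hosts (edgeR adjusted p = 0.0893 for Irf1 and 0.0979 for Irf7).

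Genes tied to both factors were counted next, where 2.83% of all genes tested were called higher between populations and 0.862% lower. Of 12 genes that depend on Irf8 in DC1, 9 fell in Rag2-/- ISG+ DC and 3 did not pass, with a median log2 fold change of -3.19 (all genes -0.02). They included Xcr1, a chemokine receptor, at 6.79 ± 3.19 CPM against 273 ± 60.1 CPM in CD103+ DC1 (SD, n = 2 each, as for all CPM means), and Tlr3, the sensor of double-stranded RNA, at 34.1 ± 12.05 against 337 ± 8.46 CPM in CD103+ DC1. Wdfy4, needed for cross-presentation, fell by 2.13 and Id2, a DC1 factor, by 2.50 on the log2 scale (edgeR adjusted p = 0.0044 and 0.000812). Batf3, which sustains Irf8 in DC1, was lower by less than the test could call, at 9.58 ± 0.995 CPM in Rag2-/- ISG+ DC and 24.4 ± 10.1 CPM in CD103+ DC1 (edgeR adjusted p = 0.382). The list held all 7 DC1 markers, among them Itgae, which encodes the CD103 of the sort, so it also restates the sorted population. None of its 12 genes passed between the hosts.

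The Irf4 list was counted against the same shares of all genes, 2.83% higher and 0.862% lower. Of 10 genes associated with Irf4 in DC2, 7 rose in Rag2-/- ISG+ DC, none fell and 3 did not pass (median log2 fold change 3.32). They were Itgam, Zeb2, Clec10a, Cd209a, Mgl2, Sirpa and Klf4. Klf4, a factor of part of the DC2 lineage, rose by 1.16 ± 0.27 (edgeR adjusted p = 0.0404), and Zeb2, a repressor, by 3.29 ± 0.26 (edgeR adjusted p = 0.000158). The list holds 5 of the 6 DC2 markers, Itgam, Clec10a, Cd209a, Mgl2 and Sirpa, so it too restates the population. With 1 library left out 6 to 7 of the list rose, 6 without Rag2-/- ISG+ DC replicate 2, and 2 were called lower without CD103+ DC1 replicate 3. Between hosts, where 0.552% of all genes were called, 1 gene of the list passed, Pdcd1lg2, which encodes the PD-1 ligand PD-L2. It had 133 and 159 CPM in WT ISG+ DC, against 10.4 and 10.9 CPM in Rag2-/- ISG+ DC, a rise of 3.78 ± 0.56 on the log2 scale (edgeR adjusted p = 0.0196). Its call was lost without Rag2-/- ISG+ DC replicate 2.

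Of the 12 macrophage and monocyte markers, 10 were also called higher in Rag2-/- ISG+ DC than in CD103+ DC1. The median log2 fold change of the 12 was 2.50 (all genes -0.02), and 2.83% of all genes were called higher. Several genes of the Irf4 list, such as Itgam and Sirpa, are also expressed by macrophages. The part of other cell types in the difference of Irf4 and Irf8 was not tested. Plasma cells express Irf4, and of 4 plasma cell markers counted, 2 to 3 were at 0 in each library, with sums of 120.2 to 157 CPM in WT ISG+ DC, 26.9 to 42.7 CPM in Rag2-/- ISG+ DC and 3.43 to 7.51 CPM in CD103+ DC1. Igj and Tnfrsf17 were at 0 in all 6 libraries. Prdm1, which is also expressed outside plasma cells, rose to 13.4 ± 9.66 CPM in Rag2-/- ISG+ DC, against 0.499 ± 0.705 CPM in CD103+ DC1 (edgeR adjusted p = 0.0321), and Sdc1 was at 21.4 ± 1.55 CPM in Rag2-/- ISG+ DC and 4.97 ± 2.19 CPM in CD103+ DC1 (edgeR adjusted p = 0.0578).

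Irf1 reached its highest values in WT ISG+ DC. It had 341 and 320.3 CPM in WT ISG+ DC and 151 and 145 CPM in Rag2-/- ISG+ DC, against 168 and 125 CPM in CD103+ DC1. Both WT libraries lay above the other 4, and the Rag2-/- groups overlapped. Between hosts the log2 difference was 1.16 ± 0.27, or 2.23-fold, and did not pass (edgeR adjusted p = 0.0893). It passed under 3 of 9 alternatives (no filter, DESeq2, and the 4 libraries alone), with adjusted p-values from 0.000918 to 0.496 over the 9. Against CD103+ DC1, Irf1 rose by 1.18 ± 0.27 in WT ISG+ DC (edgeR adjusted p = 0.0204). That call was lost in the fit of 4 libraries and without either WT library. Over all 9 alternatives the log2 change ran from 0.99 to 1.40. Between the Rag2-/- populations Irf1 differed by 0.02 ± 0.26, and this sign turned under 4 of 10 alternatives.

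Irf2, which competes with Irf1, had 250.3 and 199 CPM in WT ISG+ DC and 203 and 197 CPM in Rag2-/- ISG+ DC, against 91.9 and 177 CPM in CD103+ DC1. The ISG+ DC libraries of each host lay above CD103+ DC1, whose 2 libraries lay further apart than the means of the Rag2-/- groups. Irf2 was 0.57 ± 0.33 higher in Rag2-/- ISG+ DC than in CD103+ DC1 and did not pass (edgeR adjusted p = 0.474). Without CD103+ DC1 replicate 3 it was 1.14 higher and passed, with adjusted p-values from 0.00929 to 0.989 over 10 alternatives.

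Among 12 target genes associated with Irf1, 3 rose in WT ISG+ DC relative to Rag2-/- ISG+ DC and none fell. Their median log2 fold change was 0.37 (all genes -0.03). Of all genes tested, 0.287% were called higher between hosts and 0.265% lower. Nos2, the inducible nitric oxide synthase, had 225 and 481 CPM in WT ISG+ DC, against 0.881 and 2.99 CPM in Rag2-/- ISG+ DC, a rise of 7.52 ± 0.76 on the log2 scale (edgeR adjusted p = 0.00557). Cd274, which encodes PD-L1, had 498 and 528 CPM in WT ISG+ DC, against 117 and 130.1 CPM in Rag2-/- ISG+ DC, a rise of 2.05 ± 0.27 (edgeR adjusted p = 0.0159). Gbp2, an interferon-induced GTPase, had 617 and 874 CPM in WT ISG+ DC, against 201 and 228 CPM in Rag2-/- ISG+ DC, a rise of 1.80 ± 0.32 (edgeR adjusted p = 0.0447). All 3 genes were higher in both WT libraries. With 1 library left out, 1 to 3 of the list rose, with 1 without Rag2-/- ISG+ DC replicate 2. The antigen-processing genes of the list, such as Tap1, Psmb8 and Nlrc5, did not pass between hosts. Between the Rag2-/- populations 1 of the 12 rose, Gbp2 (2.29 ± 0.33, edgeR adjusted p = 0.00331). Psmb9, an immunoproteasome subunit, was the 1 that fell (-1.79 ± 0.35, edgeR adjusted p = 0.0163). Of all genes tested, 2.83% were called higher in this comparison and 0.862% lower. The call of Psmb9 was lost without either Rag2-/- ISG+ DC library.

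Irf7, the factor that amplifies type I interferon, took the opposite order to Irf1 in ISG+ DC. It had 415 and 449.9 CPM in WT ISG+ DC and 935 and 817 CPM in Rag2-/- ISG+ DC, against 688 and 515 CPM in CD103+ DC1. The WT libraries were the lowest of the 6 and the Rag2-/- ISG+ DC libraries the highest. Between hosts the log2 difference was -1.02 ± 0.24, a level 2.03-fold lower in WT, and did not pass (edgeR adjusted p = 0.0979). Like Irf1 it passed under 3 of 9 alternatives, with adjusted p-values from 0.00213 to 0.497. In Rag2-/- ISG+ DC against CD103+ DC1 it was 0.54 ± 0.24 higher (edgeR adjusted p = 0.315), and 0.76 higher and called without CD103+ DC1 replicate 2, with adjusted p-values from 0.0144 to 0.793 over 10 alternatives. The ratio of Irf7 to Irf1 counts, chosen after the values were seen, was 1.22 and 1.40 in WT ISG+ DC, 6.17 and 5.66 in Rag2-/- ISG+ DC, and 4.10 and 4.13 in CD103+ DC1. Its mean log2 was 2.18 lower (-2.18) in WT than in Rag2-/- ISG+ DC, with an exact two-sided permutation p of 0.333, the smallest possible here.

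Irf9, which gives ISGF3 its DNA binding, had 152 and 141 CPM in WT ISG+ DC and 184 and 155 CPM in Rag2-/- ISG+ DC, against 112 and 141 CPM in CD103+ DC1. Its ranges lay apart between populations, higher in ISG+ DC, and between hosts, lower in WT. Of all genes, 45.9% and 44.5% lay apart in these comparisons. The 3 groups lay close together and no comparison passed for Irf9. Its log2 differences were 0.42 ± 0.28 between populations and -0.21 ± 0.28 between hosts. Stat2, its partner in that complex, was at 232 ± 30.2 CPM in WT and 351 ± 54.5 CPM in Rag2-/- ISG+ DC. It did not pass (edgeR adjusted p = 0.68).

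Irf3, which starts the interferon response, had 39.3 and 43.2 CPM in WT ISG+ DC and 34.4 and 20.1 CPM in Rag2-/- ISG+ DC, against 20.6 and 15.6 CPM in CD103+ DC1. The WT libraries were the highest, and the Rag2-/- groups overlapped. The log2 differences were 0.59 ± 0.51 between populations, 0.60 ± 0.50 between hosts and 1.19 ± 0.51 in WT ISG+ DC against CD103+ DC1 (edgeR adjusted p = 0.671, 0.811 and 0.206).

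Target genes of ISGF3, 22 in number, were counted in the fit of all 6 libraries. In Rag2-/- ISG+ DC against CD103+ DC1, 2.83% of all genes tested were called higher and 0.862% lower. Of the list, 8 rose, none fell and 14 did not pass, with a median log2 fold change of 0.89 (all genes -0.02). Those 8 were Oasl2, Oas2, Oas1a, Ddx58, Ifih1, Ifit1, Ifit3 and Rsad2, which include RNA sensors and antiviral effectors, with rises of 1.36 to 2.83 on the log2 scale, and 7 to 11 rose with 1 library left out, with 1 called lower without CD103+ DC1 replicate 2. In WT against Rag2-/- ISG+ DC none rose, 4 fell and 18 did not pass, with a median of -1.02 (all genes -0.03). Of all genes tested, 0.287% were called higher between hosts and 0.265% lower. Ifit3, an antiviral protein that binds Ifit1, had 140.2 and 132 CPM in WT ISG+ DC, against 779 and 647 CPM in Rag2-/- ISG+ DC, and fell by 2.39 ± 0.37 (edgeR adjusted p = 0.0224). Mx1, an antiviral GTPase, had 202 and 163 CPM in WT ISG+ DC, against 658 and 594 CPM in Rag2-/- ISG+ DC, and fell by 1.78 ± 0.25 (edgeR adjusted p = 0.0159). Isg20 and Ifit2 fell by 2.72 and 1.44 (edgeR adjusted p = 0.0376 and 0.0393). The WT libraries lay below the Rag2-/- ISG+ DC libraries for each of the 4. No gene of the list passed without Rag2-/- ISG+ DC replicate 2, at most 2 passed with any other library left out, and 4 to 13 fell under the other settings. Oas and Ifit genes have near-identical relatives among which reads may be split, so their single values are uncertain.

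**Figure D4:**
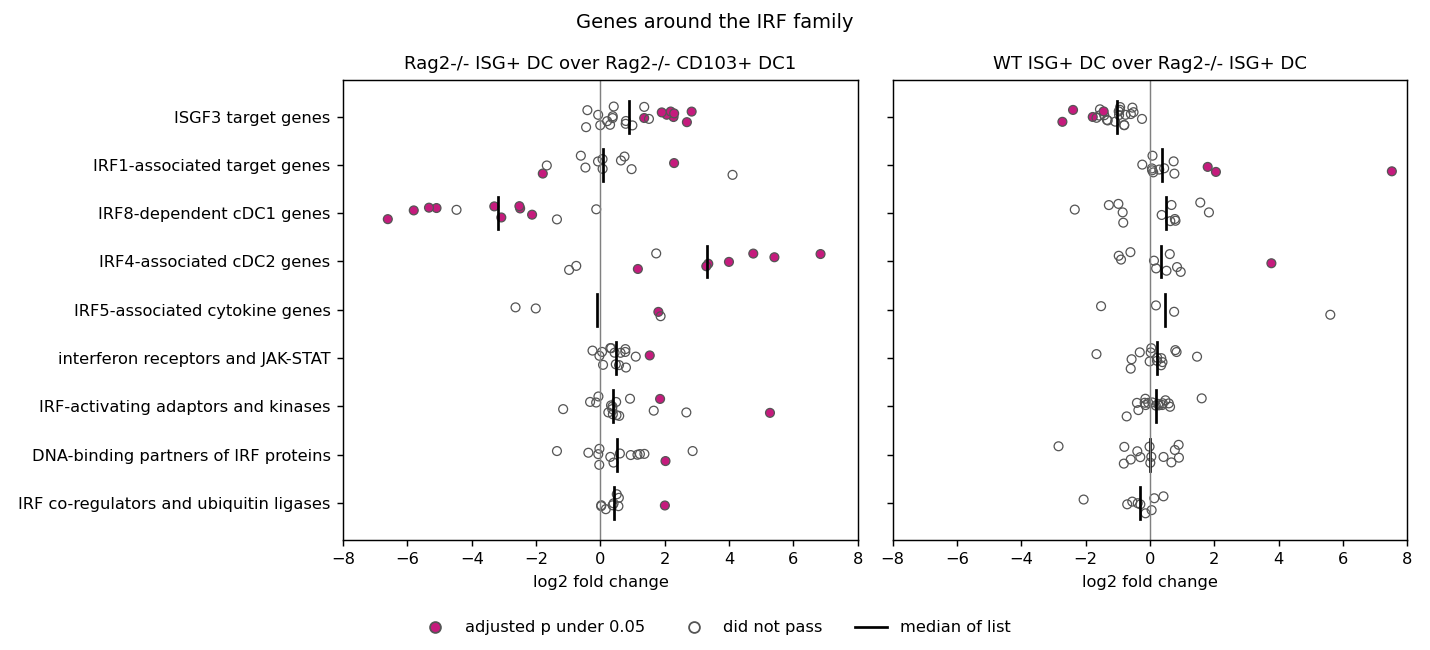
Each point is the log2 fold change of 1 gene of 9 lists around the IRF family, filled where the edgeR adjusted p was under 0.05, with a bar at the list median. ISGF3 target genes lie to the right between populations (median 0.89) and to the left between hosts (median -1.02).

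Other cell type markers also differed between the hosts. Macrophage and monocyte markers had a median log2 difference of 1.39 in WT against Rag2-/- ISG+ DC, with 0 of 12 passing. Flt3, the DC growth factor receptor, was at 24.1 ± 11.8 CPM in WT and 118 ± 37.9 CPM in Rag2-/- ISG+ DC and fell by 2.29 ± 0.41 (edgeR adjusted p = 0.0411). Zbtb46, a factor of conventional DC, was at 42.2 ± 14.2 CPM in WT and 134 ± 32.3 CPM in Rag2-/- ISG+ DC (edgeR adjusted p = 0.0534). Csf3r, a neutrophil marker, was at 130.2 ± 5.90 CPM in WT and 17.4 ± 7.22 CPM in Rag2-/- ISG+ DC and rose by 2.90 (edgeR adjusted p = 0.035). Cxcr2, the other neutrophil marker tested, was at 10.8 ± 3.11 CPM in WT and 18.8 ± 3.86 CPM in Rag2-/- ISG+ DC (edgeR adjusted p = 0.888), and 3 to 4 of 6 neutrophil markers were at 0 in each library. Fibroblast and tumor matrix markers, 8 tested, had a median log2 difference of -1.79 with none passing, and summed to 4494 to 5722 CPM in WT and 3544 to 3868 CPM in Rag2-/- ISG+ DC. Col1a2 was at 45.2 ± 51.8 CPM in WT and 253 ± 106 CPM in Rag2-/- ISG+ DC, while Fn1 was at 4839.5 ± 1195 CPM in WT and 2869.9 ± 512 CPM in Rag2-/- ISG+ DC. The part of these markers in the differences of Irf1, Irf7 and their target genes was not tested.

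Irf5 was called in no comparison. It had 395 and 352 CPM in WT ISG+ DC and 394 and 435 CPM in Rag2-/- ISG+ DC, against 568 and 399 CPM in CD103+ DC1. The ranges of the 2 hosts overlapped, and so did those of the Rag2-/- populations. The log2 differences were -0.22 ± 0.25 between populations, -0.15 ± 0.25 between hosts and -0.37 ± 0.25 in WT ISG+ DC against CD103+ DC1 (edgeR adjusted p = 0.782, 0.955 and 0.439). Of 6 cytokine genes associated with Irf5, 4 could be tested, where 2.83% of all genes were called higher between populations and 0.862% lower. Il1b rose in Rag2-/- ISG+ DC, at 368 ± 106 CPM against 106 ± 34.8 CPM in CD103+ DC1 (log2 1.80 ± 0.32, edgeR adjusted p = 0.011), and its call was lost without ISG+ DC replicate 3. Il12b, a subunit of IL-12, had 29.6 ± 10.96 CPM in Rag2-/- ISG+ DC against 119 ± 71.9 CPM in CD103+ DC1 and did not pass (edgeR adjusted p = 0.0638). None of the 4 passed between the hosts.

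Genes that act upstream of the IRF proteins were counted against the 3.69% of all genes called between populations and the 0.552% called between hosts. Of 17 adaptors and kinases that activate Irf3, Irf5 and Irf7, 2 rose in Rag2-/- ISG+ DC against CD103+ DC1, none fell and none passed between the hosts. Ikbke, the inducible kinase of Irf3 and Irf7, had 36.0 and 60.3 CPM in Rag2-/- ISG+ DC, against 2.06 and 0 CPM in CD103+ DC1, a log2 rise of 5.27 ± 0.83 (edgeR adjusted p = 0.00557). It had 124 and 169.8 CPM in WT ISG+ DC, above both other groups. Slc15a4, a lysosomal transporter in the path to Irf5, rose by 1.85 ± 0.43 (edgeR adjusted p = 0.0425). Chuk, the kinase IKK-alpha, was at 72.2 ± 8.40 CPM in Rag2-/- ISG+ DC and 161 ± 39.6 CPM in CD103+ DC1 (edgeR adjusted p = 0.0951). Without CD103+ DC1 replicate 2, 6 genes of the list rose and 1 fell, and without either Rag2-/- ISG+ DC library 1 rose.

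Of 15 genes of interferon receptors and JAK-STAT signalling, Socs3, a feedback inhibitor, was the 1 that rose between populations, at 150.4 and 97.2 CPM in Rag2-/- ISG+ DC against 38.8 and 46.9 CPM in CD103+ DC1 (log2 1.53 ± 0.30, edgeR adjusted p = 0.0184). It had 335 and 349 CPM in WT ISG+ DC, and its host difference of 1.47 ± 0.30 did not pass (edgeR adjusted p = 0.0587). Usp18, which dampens the type I receptor, was at 84.0 and 83.9 CPM in WT ISG+ DC, against 312 and 219 CPM in Rag2-/- ISG+ DC (log2 -1.66 ± 0.32, edgeR adjusted p = 0.0516). Between populations no gene of the list passed without ISG+ DC replicate 2, and 5 rose without CD103+ DC1 replicate 2. Interferon genes themselves were close to the detection limit at this depth. Of 19 interferon genes in the table, 0 to 3 had a count in a library and none passed the filter. The highest was 63 estimated counts of Ifnk in CD103+ DC1 replicate 2.

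Of 14 DNA-binding partners of IRF proteins, Jun was the 1 called between populations, at 584 and 563 CPM in Rag2-/- ISG+ DC against 123 and 160 CPM in CD103+ DC1, a log2 rise of 2.02 ± 0.25 (edgeR adjusted p = 0.00154). Jun is a subunit of AP-1, which BATF proteins join to recruit Irf4 or Irf8. Sfpi1, which encodes PU.1, was at 311 ± 13.2 CPM in Rag2-/- ISG+ DC and 162 ± 1.57 CPM in CD103+ DC1 (edgeR adjusted p = 0.0687). Of 9 co-regulators and ubiquitin ligases, Irf2bp2, a corepressor that binds Irf2, rose between populations, at 362 and 383 CPM in Rag2-/- ISG+ DC against 104 and 82.2 CPM in CD103+ DC1 (log2 2.002 ± 0.25, edgeR adjusted p = 0.00176). No gene of either list passed between the hosts. Without CD103+ DC1 replicate 2, 6 partners rose between populations.

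In WT ISG+ DC against CD103+ DC1 the same lists gave 9 lower of 12 for the Irf8 list and 8 higher of 10 for the Irf4 list, with medians of -3.69 and 3.57. Of the 22 ISGF3 targets 2 rose, Oasl2 and Oas2, and 2 fell, Mx1 and Ifi35. The counts of ISGF3 targets called each way were largest without CD103+ DC1 replicate 2 and smallest without a WT library. Of all genes tested, 9.14% were called in this comparison. Of the 12 Irf1-associated genes 3 rose and 1 fell.

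The genes most like each member were those with the smallest root mean square difference of log2 CPM over the 6 libraries, each gene centred on its own mean, among 8115 candidates of at least 10 CPM. For Irf8 they were Naaa, a lysosomal amidase that is also on the Irf8 list (0.27), Ppt1, a lysosomal thioesterase (0.35), and Ece1 (0.36). For Irf4 they were Arhgef10l (0.16), Clec10a, a lectin on the Irf4 list (0.19), and Ms4a6b (0.35). For Irf1 they were Tsc22d3 (0.10), Npc2 (0.12) and Dhrs7 (0.12), and for Irf7 Coro2a (0.07), BC006779 (0.10) and Pnpt1 (0.11). Tmem33, Sdcbp and Psmd10 were nearest to Irf2, Klf3, Bcar3 and Xylt2 to Irf3, Rabep1, Atr and Mbp to Irf5, and Rfxank, Tnfrsf10b and Mgea5 to Irf9. All genes share the same 6 libraries in 3 groups, so this likeness is a description, and it carries no statement on shared function.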

How the data were processed

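RNA was sequenced from 6 pools of sorted tumor DC with the SMARTer Stranded Total RNA Pico kit on an Illumina NextSeq, per the labels' protocols; the molecule field of the labels names polyA RNA, and this was not reconciled. Estimated counts per gene were deposited by the authors, made with Bowtie 1.2.3 and RSEM 1.3.1 on build mm9 per the submitters' processing notes; annotation, filters and strand setting were not given in the sources used here. Of the values 16.1% were not whole.

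Here the estimated counts were rounded and tested with edgeR 4.0.16 in R 4.3.3 (quasi-likelihood test, two-sided, TMM factors, minimum count 10), in 1 fit over 6 libraries and 3 groups, with Benjamini-Hochberg adjustment over 13223 of 23224 genes. The standard error is the log2 fold change divided by the square root of F. CPM values use TMM-scaled totals. The count script was tested on simulated data with a dispersion of 0.3 for every gene. These libraries varied more, with a common coefficient of variation (the square root of the dispersion) of 0.703. That test therefore does not vouch for the calls made here. DESeq2 1.42.0, other scaling, no filter, fits of 4 libraries, left-out libraries and a replicate block were alternatives. Library totals ran from 6023510 to 15368616, so a limit of 3 counts over a group is 0.101 to 0.144 CPM, which covers counting error only. The labels state replicate experiments with pooled tumors, and p-values measure the spread between those pools. Replicate numbers 2 and 3 occur in both Rag2-/- groups, and the main fit treats these libraries as unpaired. Same-numbered libraries correlated at 0.0262 in their deviations, but 2 pairs cannot show whether they share an experiment. Replicates differed by far more than sampling noise.

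Named genes were the 8 members, called genes of each list, their known defining genes and the 3 genes most like each member. Other list genes not called in the comparison described, such as Chuk, Sfpi1 and Il12b, were named with their values known. The members and lists were chosen with earlier results of these data known. Exon lengths came from GENCODE M21 and promoters from RefSeq. Items withheld for evaluation are not reported here.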

Additional observations from a re-analysis of the deposited data

How the results depend on the processing

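Irf8 and Irf4 kept their calls in the comparisons with CD103+ DC1 under each of the 10 alternatives between the Rag2-/- populations and the 9 in WT ISG+ DC. For Rag2-/- ISG+ DC against CD103+ DC1, 488 genes were called, against 1087 with no filter, 1112 with DESeq2, 297 in the fit of 4 libraries, and 278 to 2068 with 1 library left out (278 where ISG+ DC replicate 3, 2068 where CD103+ DC1 replicate 2 and 774 where CD103+ DC1 replicate 3 was left out). For WT against Rag2-/- ISG+ DC the 73 called became 555 with no filter, 564 with DESeq2, 444 in the fit of 4 libraries, and 27 to 198 with 1 library left out (27 without Rag2-/- replicate 2, 198 without WT replicate 1). For WT ISG+ DC against CD103+ DC1 the 1209 called became 1890, 2168 and 683 under the same 3 settings, and 837 to 2754 with 1 library left out (2754 without CD103+ DC1 replicate 2). IRF members called between hosts numbered 0, and 2 with no filter, with DESeq2 and in the fit of 4 libraries. With 1 library left out 0 members were called between hosts, 2 to 3 between populations and 2 to 5 in WT ISG+ DC against CD103+ DC1.

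Between populations the sign of Irf1 turned, to -0.0186 with RLE factors, -0.0194 with DESeq2, -0.161 without CD103+ DC1 replicate 3 and -0.0163 without ISG+ DC replicate 2, the left-out libraries giving -0.161 to 0.24. That of Irf5 turned to 0.0517 without CD103+ DC1 replicate 2 (range -0.43 to 0.0517). Between hosts Irf2 turned to -0.0064 without WT replicate 1 (range -0.0064 to 0.32). None of these 3 differences was called. In WT ISG+ DC against CD103+ DC1, Irf2 (1.304, edgeR adjusted p = 0.00158) and Irf7 (-0.66, edgeR adjusted p = 0.0231) passed without CD103+ DC1 replicate 3, with adjusted p-values up to 0.589 and 0.643 over their alternatives. The causes were not tested.

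With the replicate block 715 genes were called between the Rag2-/- populations, and Irf4 and Irf8 stayed the 2 members called. For the other comparisons no paired analysis was possible because their groups share only replicate number 2. Counts by list under every setting were added after seeing the data. No other scaling moved the median of all genes by more than 0.1 (log2). With 2 libraries a group, a missed threshold says little about small differences.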
